A study of Mus musculus with 2 samples.

Results

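Polycomb complex genes, meaning the genes that encode subunits of the Polycomb repressive complexes PRC1 and PRC2 and of the Polycomb deubiquitinase PR-DUB, were followed in the female mouse embryonic stem cell line PGK12.1 before and after it formed embryoid bodies. The members were a fixed list of 34 subunit genes, chosen by name but with earlier results of these data known. Of the 34, 33 had a probe set that names that gene alone, out of 18193 genes measured. Rybp had no value, because both of its probe sets also name a Rybp pseudogene. The line came from blastocysts of a 129 female and a (129 X PGK)F1 male and was used at passages 14 to 18. One group was the undifferentiated line, kept with leukemia inhibitory factor on mouse embryonic fibroblast feeders that were depleted on gelatin before collection, and the other was that line taken through 15 days of differentiation in embryoid bodies. The labels give 2 active X chromosomes in the first group and 1 in the second, and the study set out to follow X-linked expression between them. Each condition was measured on 1 array, so there is no replicate error, no test and no p-value, and genes are described by the size of their difference alone.

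PRC2 places methyl groups on lysine 27 of histone H3, through EZH2 or its relative EZH1, and needs EED and SUZ12 for activity. PRC1 places ubiquitin on histone H2A through RING1 or RNF2 paired with a PCGF protein. Its canonical forms carry a CBX protein that reads the PRC2 mark and a PHC protein that polymerises, whereas its variant forms carry RYBP or YAF2 in place of CBX. PR-DUB, built from BAP1 and an ASXL protein, removes that ubiquitin. In embryonic stem cells both complexes occupy the promoters of developmental regulators, and both are recruited to the X chromosome that Xist RNA coats.

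Promoter sequence is shown for the members that hold an E2F-like run of letters, since E2F factors drive genes of the cell cycle and Ezh2 and Eed are textbook E2F targets. RefSeq windows on assembly GRCm38.p6, from 250 bases before to 50 bases after each annotated start, matched 30 of the 34 members in 42 windows. The motif TTTNNCGC was searched on both strands, and it was chosen after the signals were known. It occurred in 4 of the 42 member windows (9.52%) and in 1698 of all 32851 windows of that length (5.17%). Those 4 windows belong to Ezh2 (chr6:47594981-47595280, minus strand), Suz12 (chr11:79992856-79993155, plus strand), Phf19 (chr2:34913927-34914226, minus strand) and Asxl1 (chr2:153345580-153345879, plus strand). Capitals mark the motif on either strand, and each window reads 5′ to 3′ on the strand of its gene:
Ezh2: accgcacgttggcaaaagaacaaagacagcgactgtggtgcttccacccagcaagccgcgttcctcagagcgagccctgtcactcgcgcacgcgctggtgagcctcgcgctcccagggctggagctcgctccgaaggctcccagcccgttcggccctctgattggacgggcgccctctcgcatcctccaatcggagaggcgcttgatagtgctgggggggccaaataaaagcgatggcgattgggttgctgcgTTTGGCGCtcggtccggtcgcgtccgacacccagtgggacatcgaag
Suz12: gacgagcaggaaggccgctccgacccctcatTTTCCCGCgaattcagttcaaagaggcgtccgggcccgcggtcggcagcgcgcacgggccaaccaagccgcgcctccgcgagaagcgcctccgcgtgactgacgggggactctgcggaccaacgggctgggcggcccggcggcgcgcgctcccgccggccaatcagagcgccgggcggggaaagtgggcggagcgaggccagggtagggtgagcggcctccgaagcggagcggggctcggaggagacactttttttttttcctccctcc
Phf19: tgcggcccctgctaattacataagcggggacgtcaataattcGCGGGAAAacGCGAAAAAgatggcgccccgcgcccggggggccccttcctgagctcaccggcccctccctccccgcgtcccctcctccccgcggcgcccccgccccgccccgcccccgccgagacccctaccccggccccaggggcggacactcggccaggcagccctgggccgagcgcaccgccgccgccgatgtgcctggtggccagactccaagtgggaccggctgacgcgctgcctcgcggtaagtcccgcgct
Asxl1: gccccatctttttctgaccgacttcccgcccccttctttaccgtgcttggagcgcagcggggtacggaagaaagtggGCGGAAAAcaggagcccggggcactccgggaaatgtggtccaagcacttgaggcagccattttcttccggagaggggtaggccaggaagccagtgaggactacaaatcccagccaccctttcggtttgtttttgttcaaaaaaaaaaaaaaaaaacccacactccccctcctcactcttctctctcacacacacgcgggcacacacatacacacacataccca
In Ezh2 the run starts at base 4 counted from the start site, and in the other three it lies before the start. The Phf19 window holds 2 such runs. The log2 differences of these 4 genes (day 15 minus undifferentiated) were -1.02, -0.81, -0.83 and -0.97 in the order shown, and 20 of all 33 measured members lay below 0. The windows of Eed, Jarid2, Mtf2, Pcgf6, Cbx7 and L3mbtl2, which had lower values than these, hold no such letters. Binding by E2F factors was not tested. Member windows held a median of 24 CpG dinucleotides, against 7 over all windows, and their counts ran from 0 to 54. The motif itself holds a CpG, so the shares of 9.52% and 5.17% compare windows of unlike CpG content. The part of CpG content in those shares was not tested.

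Signals are linear intensities that were scaled before deposit to a trimmed mean of 250 on each array. A log2 difference is log2(signal + 16) at day 15 minus the same in undifferentiated cells, and a gene is represented by its brightest probe set over both arrays. Folds are ratios of the signals themselves. Counts use genes whose mean lay at or above the median probe set, a signal of about 36.5, and all 33 measured members passed, with signals from 46.4 to 10432. The control probe sets with no target RNA reached 35.6 at most, so no fold of a member on its brightest probe set rests on a signal at that level. Scaling bears on every value: the bacterial hybridization controls measured higher at day 15 by a mean log2 ratio of 0.39, and scaling on them moves the median of all genes from 0.00052 to -0.36. Values below are on the deposited scaling unless stated. Where a gene is said to read a pair of signals, undifferentiated cells come first and day 15 second.

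By day 15, 8 of the 33 members were lower by 2-fold or more (24.2%), 6 were at least 2-fold higher (18.2%) and 19 lay between. Among all 11960 genes above the filter, 8.41% were at least 2-fold lower and 16.5% at least 2-fold higher. The share of members that measured higher was thus near that of all genes, while the share that measured lower was above it. The 8 lower genes were Ezh2, Eed, Jarid2 and Mtf2 of PRC2 and Pcgf6, Cbx7, Phc1 and L3mbtl2 of PRC1. The 6 higher genes were Phf1 of PRC2 and Bmi1, Pcgf5, Phc2, Phc3 and Yaf2 of PRC1. The median log2 difference of members was -0.31, and 20 of them lay below 0. With the arrays scaled on the hybridization controls, 12 members were at least 2-fold lower (18.8% of all genes) and 5 higher (11.3%). Quantile normalization gave 8 lower (11.4% of all genes) and 5 higher (13.8%), and the 8 then held Phf19 and Asxl1 in place of Ezh2 and Phc1.

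**Figure D1:**
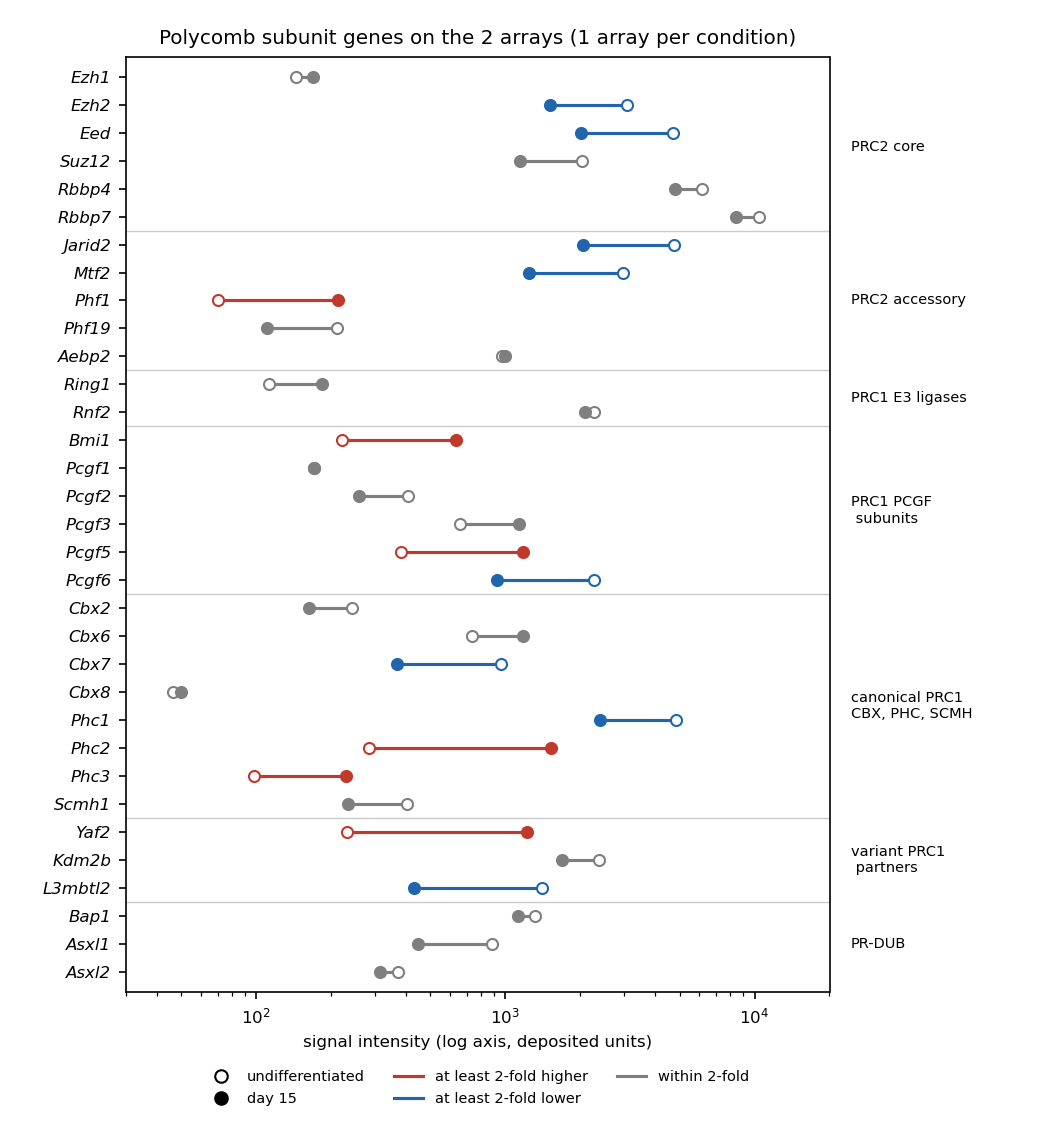
Signal intensity (log axis) of the 33 measured Polycomb subunit genes before (open circles) and at day 15 (filled circles), grouped by complex, with 1 array per condition. Blue lines mark the 8 genes lower by 2-fold or more, red lines the 6 at least 2-fold higher and grey lines the 19 between.

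In bulk RNA, fewer cells of a type and less RNA per cell cannot be told apart, and cell composition was not measured. Marker RNA differed between the 2 cultures. All 18 pluripotent cell markers measured lower at day 15, 12 of them at least 2-fold (median -1.24, summed signal 78831 and 39745). Among 18 genes of proliferation, 5 passed 2-fold downward and none upward (median -0.77, summed signal 75454 and 40499). Of 15 fibroblast markers, 14 were at least 2-fold higher (median 5.02, summed signal 5561 and 61677), and Col1a1 read 17.2 in undifferentiated cells. Visceral endoderm markers had 5 of 10 at least 2-fold higher, cardiac markers 2 of 9 and neural markers 3 of 9, with 3 neural markers lower. Among endothelial markers 1 of 6 was higher and 2 were lower, and among blood cell markers 2 of 6 were higher and 1 lower. Of all genes above the filter, 16.5% were at least 2-fold higher and 8.41% lower. The part of these cell types in the Polycomb values was not tested.

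In PRC2, 8 of 11 subunit genes measured lower at day 15. Of the 11, 4 were at least 2-fold lower and 1 at least 2-fold higher, against 8.41% and 16.5% of all genes above the filter. The median was -0.81 (between -1.17 and -0.35 over the processing alternatives), against 0.00052 over all genes. Ezh2, the main histone methyltransferase, read 3085 before differentiation and 1515 after it (2.04-fold lower, log2 difference -1.02). That value sat just past the 2-fold line, and it was -0.88 with quantile normalization. Eed, the subunit that binds the methylated histone tail, read 4714 and 2016 (2.34-fold lower). A second Eed probe set, below the filter, read 18.9 and 21.5.

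Suz12, the scaffold subunit, read 2024 and 1150 (-0.81), short of 2-fold. Its probe sets did not move as one: the 2 other bright ones read 2088 and 959, and 1437 and 841, but the 3 dim ones had differences of 0.66, 0.16 and -0.26. Both histone chaperone subunits, which PRC2 shares with other chromatin complexes, lay closer to 0 on their brightest probe sets. Rbbp4 read 6152 and 4815 (-0.35), with other probe sets above the filter at -0.78 and -0.33. Rbbp7 read 10432 and 8431 (-0.31), with another probe set at -0.36. Rbbp7 is the only X-linked member. Its difference from the autosomal Rbbp4 was 0.05 on the brightest probe sets and 0.42 on the second brightest. The 418 X-linked genes above the filter had a median of -0.18, against 0.0064 over 11522 autosomal genes.

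Ezh1, the second methyltransferase gene, did not follow Ezh2 on its brightest probe set. That probe set read 145.0 and 169.7, a log2 difference of 0.21 that turned to -0.13 with quantile normalization and to -0.15 with scaling on the hybridization controls. The difference between Ezh1 and Ezh2 was 1.22. It comes from 1 Ezh1 probe set, since the 3 others read 53.9 and 26.9, 27 and 12.9, and 10.1 and 15.6, and so lay below the 35.6 of the blank controls on at least 1 array.

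The accessory subunits of PRC2 went different ways. Jarid2, which helps to bring PRC2 to its targets, read 4763 and 2045 (2.33-fold lower), and its 2 other probe sets gave differences of -1.57 and -1.42. Mtf2, the Polycomb-like subunit that binds DNA rich in CpG, read 2969 and 1246 (2.38-fold lower), with 3 other probe sets above the filter between -1.20 and -0.57. Phf1, a paralog of Mtf2, was the only PRC2 gene past 2-fold in the other direction, at 70.3 and 212.3 (3.02-fold higher). Phf19, the third Polycomb-like gene, read 210.0 and 110.7 (-0.83), and its other probe set, below the filter, read 8.40 and 41.1. Phf1 and Mtf2 thus differed by 2.65 in their log2 difference, and Phf1 and Phf19 by 2.24. Aebp2, which occurs with Jarid2 in the same form of PRC2, read 965 and 993 (0.04), whereas 2 other probe sets gave -0.68 and -0.29, and another read 68.7 and 31.5, the latter below the blank controls. The difference of Jarid2 from Aebp2 was -1.25 on the brightest probe sets and between -1.61 and -0.54 over the 9 combinations of probe sets that lay above the blank controls on both arrays.

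**Figure D2:**
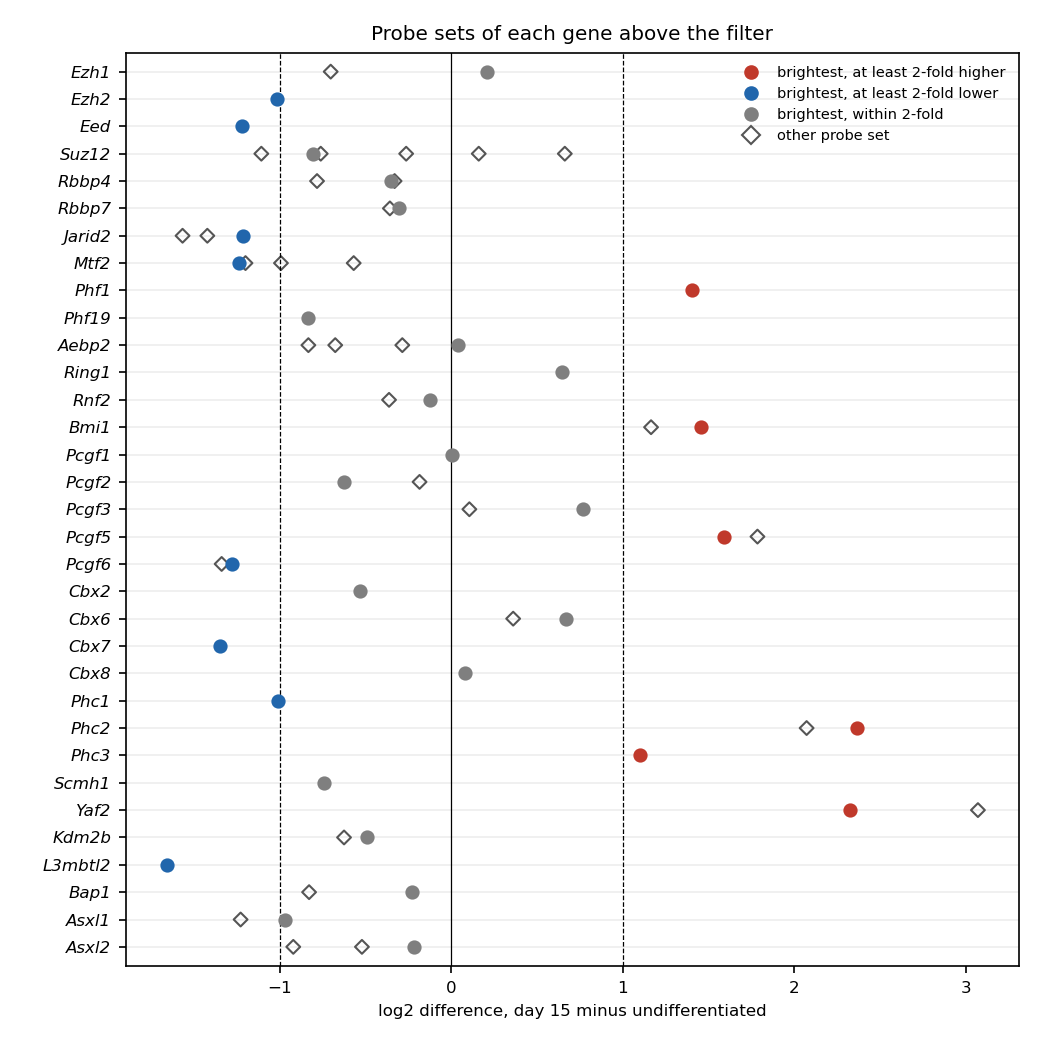
Log2 difference (day 15 minus undifferentiated) of every probe set above the filter for each measured Polycomb subunit gene. Filled circles are the brightest probe sets, coloured by call, diamonds are the other probe sets, and dashed lines mark 2-fold. Of the 14 genes past 2-fold, 7 have another probe set above the filter, each on the same side of 0, while Ezh1, Suz12 and Aebp2 have probe sets on both sides.

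PRC1 subunits were split. Of the 19 measured, 4 were at least 2-fold lower and 5 at least 2-fold higher, against 8.41% and 16.5% of all genes above the filter. The median was 0.0031 and lay between -0.35 and 0.05 over the alternatives. Neither catalytic gene reached 2-fold. Rnf2, which encodes the main ubiquitin ligase of stem cells (RING1B), read 2267 and 2081 (-0.12), with another probe set above the filter at -0.36. Ring1, its paralog, read 112.1 and 184.0 (0.64) and had 1 probe set. Their log2 differences were 0.77 apart, and 0.31 apart with quantile normalization.

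PCGF subunits define the kind of PRC1. Bmi1 (PCGF4) and Pcgf2, which occur in canonical PRC1, lay on opposite sides of 0. Bmi1 read 220.1 and 632.5 (2.87-fold higher), and its second probe set, at 76.5 and 191.3, gave 1.16. Pcgf2 read 406 and 258 (-0.63), with a second probe set at -0.19. The difference between Bmi1 and Pcgf2 was 2.08 and stayed between 1.35 and 2.17 over the processing alternatives.

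Pcgf3 and Pcgf5, whose complexes begin Polycomb recruitment by Xist, both measured higher at day 15. Pcgf5 read 381 and 1178 (3.09-fold higher), and its second probe set gave 1.78. Pcgf3 read 660 and 1136 (0.77), short of 2-fold, with a dim second probe set at 0.10. Pcgf6, whose PRC1 form acts at germ line genes in stem cells, read 2260 and 922 (2.45-fold lower), with a second probe set at -1.34. L3mbtl2, which works in the same PCGF6 complex, had the lowest value of all 33 members, at 1398 and 431 (3.24-fold lower), from 1 probe set. Pcgf1, the partner of KDM2B, read 170.6 and 171.0, and its log2 difference lay 1.28 above that of Pcgf6.

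Of the 4 genes for CBX proteins, which read the PRC2 mark, Cbx7 alone passed 2-fold. Cbx7, known as the main CBX gene of embryonic stem cells, read 958.5 and 367.0 (2.61-fold lower). Its 2 other probe sets lay below the filter, at 54.2 and 15.5 and, in the other direction, at 20.1 and 32.2. Cbx2 read 242.5 and 162.4 (-0.54). Cbx6 read 733 and 1176, and its difference of 0.67 was 0.29 with scaling on the hybridization controls. Cbx8 was dim on both arrays, at 46.4 and 49.8, and its difference changed sign with the scaling. Set against Cbx7, the log2 difference was 2.02 higher for Cbx6, 1.42 for Cbx8 and 0.81 for Cbx2.

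The PHC genes had the widest contrast among related subunits. Phc1, bright in stem cells, read 4835 and 2388 (2.02-fold lower, -1.01), just past the 2-fold line and at -0.86 with quantile normalization. Phc2 read 283 and 1525, which is 5.38-fold higher and the highest fold of any member on its brightest probe set, and its second probe set, at 294 and 1289, gave 2.07. Phc3 read 98.0 and 228.6 (2.33-fold higher, 1.10), which was 0.78 with quantile normalization and 0.74 with scaling on the hybridization controls. Phc2 differed from Phc1 by 3.38, and by 3.08 to 3.44 over the alternatives. Scmh1, whose product shares the SAM domain of the PHC proteins, read 403.0 and 234.5 (-0.74).

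**Figure D3:**
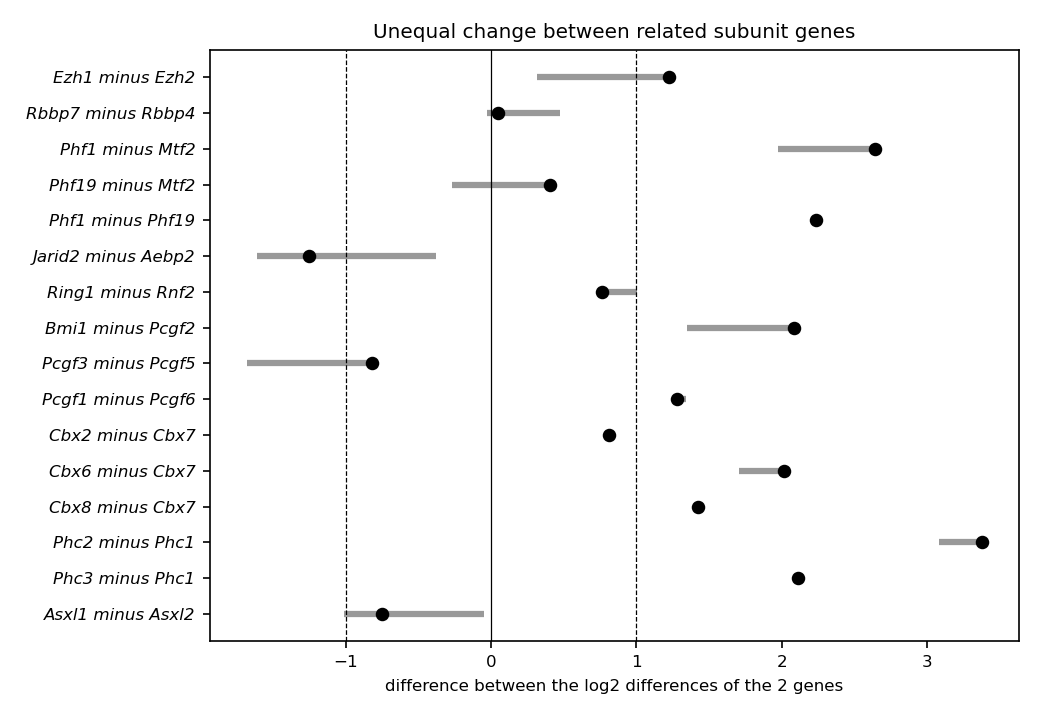
Difference between the log2 differences of related Polycomb subunit genes (first gene minus second) for the 16 pairs with values. Black points use the brightest probe sets, grey bars span all combinations of probe sets above the filter, and dashed lines mark a 2-fold unequal change. The bars of Ezh1 with Ezh2 and of Jarid2 with Aebp2 include a probe set below the blank controls at day 15. Points reach 3.38 for Phc2 against Phc1, and 10 of the 16 pairs lie past the dashed lines.

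Of 17 pairs of related subunits, 16 had values, and 10 of these differed by at least 1 on the log2 scale. Among all pairs that the 11960 genes can form, 43.2% lie that far apart. The count was 8 with quantile normalization (42.3% of all pairs), where Ezh1 and Ezh2 and also Pcgf1 and Pcgf6 were less than 1 apart. Of the 10 pairs, 7 have more than 1 combination of probe sets above the filter, and in each of the 7 the sign was the same for every combination. The 10 pairs, in which Phf1, Cbx7 and Phc1 each occur more than once, were Ezh1 and Ezh2, Phf1 with each of Mtf2 and Phf19, Jarid2 and Aebp2, Bmi1 and Pcgf2, Pcgf1 and Pcgf6, Cbx7 with each of Cbx6 and Cbx8, and Phc1 with each of Phc2 and Phc3. A ratio of this kind shows unequal change within the pair and does not show which gene stayed level.

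Yaf2, which takes the place of CBX in variant PRC1, read 230.5 and 1221 (5.30-fold higher). Its second probe set, at 139.7 and 1292, gave a log2 difference of 3.07. Kdm2b, which binds unmethylated CpG and brings variant PRC1 to CpG islands, read 2383 and 1689 (-0.49), with another probe set at -0.63. None of the 3 PR-DUB genes reached 2-fold on its brightest probe set. The deubiquitinase gene Bap1 read 1319 and 1122 (-0.23) and its cofactor gene Asxl2 read 369.5 and 315.0 (-0.22), but other probe sets of each reached -0.83 and -0.92. Asxl1 read 887 and 446, a difference of -0.97 just inside the 2-fold line, and its second bright probe set, at 848 and 353, gave -1.23.

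**Figure D4:**
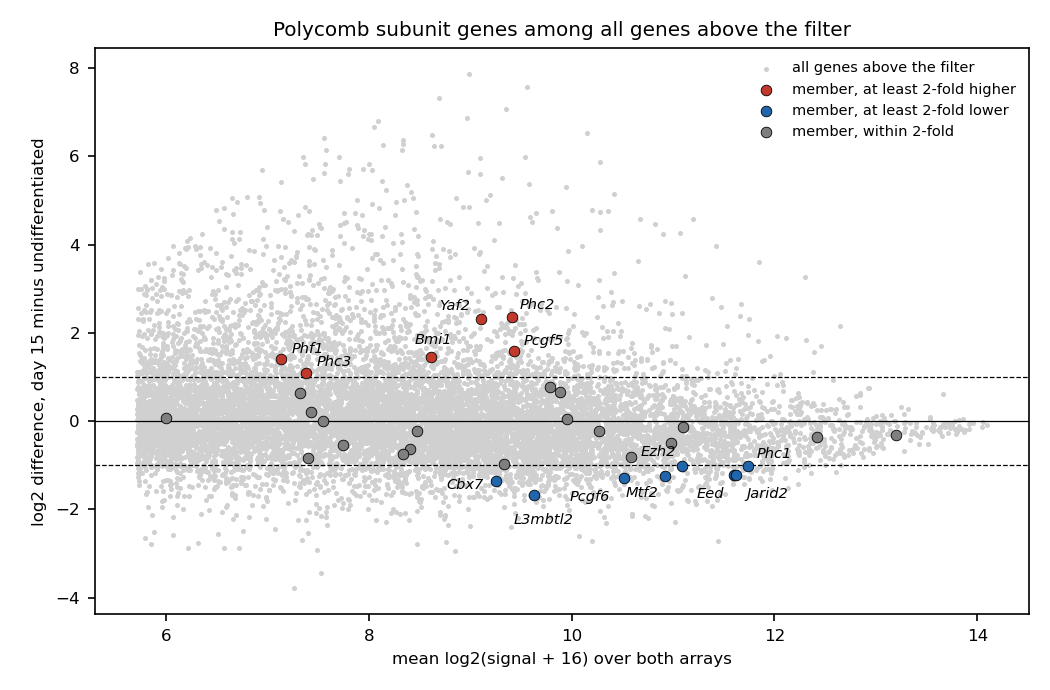
Log2 difference (day 15 minus undifferentiated) against mean log2(signal + 16) for all 11960 genes above the filter (light grey) and the 33 Polycomb subunit genes (large points, coloured by call), with dashed lines at 2-fold. The bright members on the right lie below 0, and the 6 members above the upper line have moderate signals.

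The brightest members measured lower at day 15. All 12 members with a mean signal of at least 1000 over both arrays lay below 0, against 63.4% of the 2488 genes of all kinds at that level. Of these 12, 6 were at least 2-fold lower (11.1% of all genes at that level) and none was higher. The 21 dimmer members had a median of 0.08, and 9472 dimmer genes of all kinds had 0.07. The level of 1000 was chosen after the values were seen, and the count below 0 depends on it. Of members just under it, Aebp2 (965 and 993), Cbx6 (733 and 1176) and Phc2 (283 and 1525) lay above 0. L3mbtl2 (1398 and 431), also just under it, lay below 0. Signals of different probe sets depend on the probes as well as on RNA.

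A list of 34 other Polycomb subunits and partners had 30 above the filter, with a median of -0.17. Of the 30, 7 were at least 2-fold lower and 2 at least 2-fold higher, against 8.41% and 16.5% of all genes. With scaling on the hybridization controls 11 were lower (18.8% of all genes) and 0 higher (11.3%). Epop, a PRC2 partner known from stem cells, was 4.65-fold lower (3676 and 790). Sfmbt2, an imprinted gene for a Polycomb-related protein, was 4.59-fold lower (657 and 143), and Rest, which encodes a repressor that can recruit Polycomb proteins, was 3.10-fold lower with a second probe set at -0.24. The X-linked gene Hcfc1, whose product binds BAP1, was 2.48-fold lower (2962 and 1193).

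Among antagonists of the Polycomb marks, 1 of 7 was at least 2-fold higher and 0 were lower, against 16.5% and 8.41% of all genes. Kdm6b, which encodes a demethylase of the PRC2 mark, read 152.4 and 322.5 (1.01), a call that was lost under each of the 3 other scalings and with a pseudocount of 64. Kdm6a, its X-linked relative, read 1741 and 932 (-0.89). The Trithorax and COMPASS list includes genes for complexes that place activating methylation on histone H3. Of its 13 genes above the filter, 5 were at least 2-fold lower and 1 higher, against 8.41% and 16.5% of all genes. Its median was -0.59. Dpy30 (2.43-fold lower), Setd1b (2.35-fold lower) and Ash2l (2.19-fold lower) encode parts of the methylating complexes, and Kmt2e was 3.26-fold higher.

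Of 31 measured developmental regulators known as Polycomb targets in stem cells, 12 were higher by 2-fold or more at day 15 and 0 lower, with a median of 0.83. Of these, 24 passed the filter, with a median of 1.02 and the same counts. Because 5 of the 24 read below the blank controls in undifferentiated cells and passed through day 15 alone, they had to differ, and 7 of the other 19 were at least 2-fold higher. Among the 24 the count was 7 with a pseudocount of 64 (12.9% of all genes) and 15 with a pseudocount of 1 (17.6%). The median stayed above 0 under every alternative. Hand2 read 18.0 and 1779, and the fold was at least 23.6 for Tbx20, at least 23.1 for Gata6 and 16.5 for Cdkn2b, where "at least" sets the day 15 signal against the 35.6 of the blank controls. Their other probe sets above the filter were dimmer at day 15, at 25.4 and 165.8 for Hand2, 33.5 and 63.7 for Tbx20, and 23.4 and 396.5 for Gata6. Cdkn2a, the cell cycle inhibitor locus for which BMI1 is best known, read 40.5 and 149.3 (1.55). No chromatin mark was measured, so occupancy of these genes by Polycomb complexes was not tested.

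In the Xist list, 2 of 11 genes passed 2-fold upward and 0 downward, against 16.5% and 8.41% of all genes above the filter. Xist read 550 and 2242 on its brightest probe set. Its other probe sets, below the filter, read 1.4 and 85.3, and 2.4 and 39.7. Ciz1, whose product anchors Xist RNA, read 52.5 and 239.5 (4.56-fold higher). Hnrnpk, which links Xist to PCGF3 and PCGF5 complexes, read 9114 and 8754 (-0.06). Spen, which encodes the main silencing factor bound by Xist, read 442.8 and 254.4 (-0.76).

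**Figure D5:**
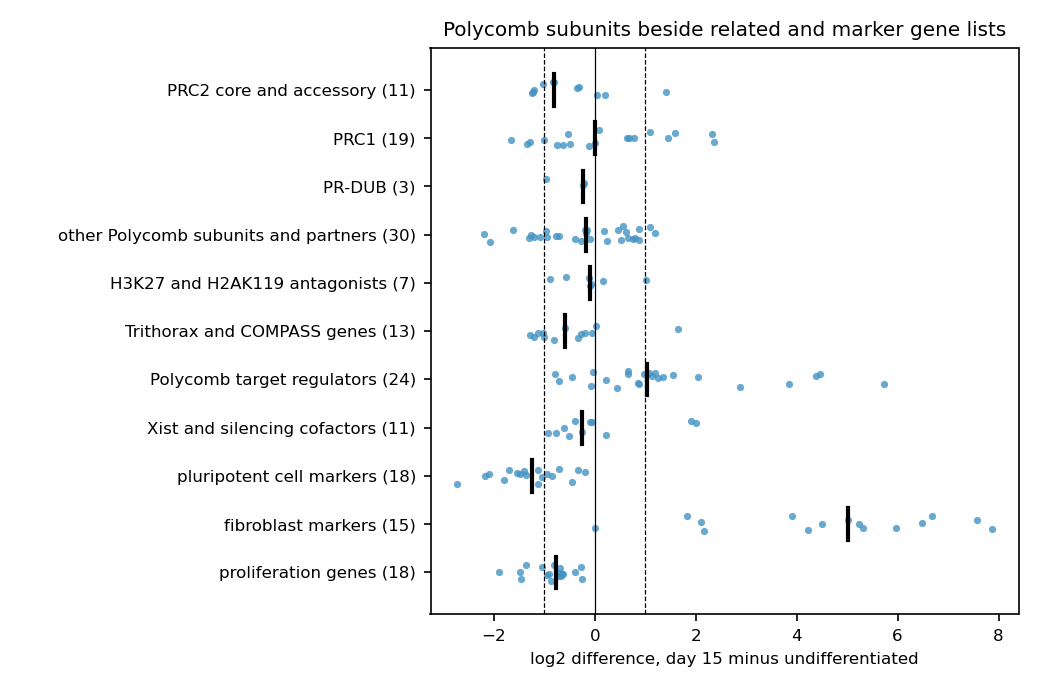
Log2 difference (day 15 minus undifferentiated) of each gene above the filter in the Polycomb complexes and in related and marker lists. Points are genes, vertical bars are list medians, numbers in brackets are genes per list, and dashed lines mark 2-fold. PRC2 has a median of -0.81 and PRC1 of 0.0031, proliferation genes have -0.77, and Polycomb target regulators have 1.02.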

How the data were processed

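Total RNA of each condition was hybridised as biotinylated cRNA to 1 Affymetrix mouse array, per the labels' protocols. The values the authors deposited are linear signal intensity per probe set, with equal trimmed means on both arrays; the summary software is not given in the sources used here, and no array build was named. After 64 control probe sets were set aside, 34945 of 45037 probe sets named 1 gene in the platform annotation, 932 named several and 9160 were not listed. Symbols and chromosomes came from RefSeq genes of GRCm38.p6, with 34741 probe sets matched on identifier and 143 on symbol. Gene values, calls at 2-fold and medians were computed with Python 3.11.15, numpy 2.4.6 and pandas 2.3.3, and the procedure was tested on simulated data. The number of arrays limits the precision. The SD of log2 differences between probe sets of the same gene was 0.53, over 5157 genes with several. The members and lists were chosen with earlier results of these data known. Members were named in full, and other lists by up to 4 genes with the largest differences, except that any gene of the Xist list could be named. Cdkn2a and the bright-signal level were chosen after their values were seen. The alternatives were pseudocounts of 1 and 64, no filter and a filter at the 75th percentile, other choices of probe set, and 3 other scalings.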

Additional observations from a re-analysis of the deposited data

How the results depend on the processing

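Over the 10 alternatives, the members at least 2-fold lower at day 15 numbered 6 to 12 and those at least 2-fold higher 4 to 6, and the median of the members lay between -0.70 (scaling on the hybridization controls) and -0.31. All 14 members past 2-fold kept their sign wherever they had a value, and 8 of them were past 2-fold wherever they had a value: Jarid2, Pcgf6 and L3mbtl2 lower, and Phf1, Bmi1, Pcgf5, Phc2 and Yaf2 higher. Phf1 and L3mbtl2 have 1 probe set each, so the choice of probe set could not move them, Phf1 had no value with the stricter filter, and Yaf2 had none without the probe sets marked a, s or x. Ezh2 and Phc1 fell inside 2-fold with quantile normalization and with a pseudocount of 64. With the mean over probe sets, which brings in dim ones, Eed had -0.56, Mtf2 -0.70, Cbx7 -0.70 and Phc3 0.54. The difference between Ezh1 and Ezh2 was 0.45 without the probe sets marked a, s or x and 0.31 with the second brightest probe set; the Ezh1 probe set in the first lies below the blank controls on both arrays and that in the second at day 15, so neither measures the size of the difference. Genes past 2-fold were higher at day 15 in 66.3% of cases over all genes as deposited, in 54.6% with quantile normalization and in 37.7% with scaling on the hybridization controls. No paired analysis was possible because each condition has 1 array, and for the same reason no array could be left out.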
